A study of Mus musculus with 2 samples.

Results

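Mediator subunits and transcription elongation factors were examined in cultured neural stem cells of the mouse subventricular zone (SVZ), the stem cell niche along the lateral ventricle of the adult brain. Members were all genes whose symbol is MED followed by digits, plus 26 genes named one by one, with at least 100 unique molecular identifiers (UMIs, counts of single captured RNA molecules) over both libraries. This gave 54 of 27998 genes: 31 of Mediator, counting Ccnc, Cdk8 and Cdk19, and 23 elongation factors. All 54 passed the minimum, with 923 UMIs for Ell2 and 46785 for Supt16 as the ends of the range. The study made 1 single-cell library per age from C57BL/6 mice with the 10x Genomics 3′ version 3 chemistry: a young library from mice of 2 months and an aged library from mice of 15-18 months. For each library SVZ tissue of 5 mice was pooled and dissociated, and the cells were kept in a proliferation medium before capture, so each age is a single pooled culture. Age and culture therefore cannot be told apart, and no test of age was possible. Intervals below are exact 95% intervals that cover counting error only.

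Mediator is a large complex that bridges enhancer-bound transcription factors and RNA polymerase II. Its head and middle contact the polymerase, its tail contacts activators, Med14 is the backbone that joins them, and a separable kinase module (Cdk8 or Cdk19 with Ccnc, Med12 and Med13) controls how it engages the polymerase. After initiation the polymerase pauses close to the start site under DSIF (Supt4a, Supt5) and NELF, and is released when the kinase P-TEFb (Cdk9 with Ccnt1 or Ccnt2) phosphorylates these factors. FACT (Ssrp1, Supt16) and Supt6 handle the nucleosomes ahead of and behind the polymerase, the PAF1 complex and TFIIS (Tcea1) keep it moving, and Cdk12 and Cdk13 phosphorylate its tail within the gene body.

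The filters left 2639 young and 2527 aged cells, which held 58891207 and 60140272 UMIs, a median of 22951 and 23745 per cell. The labelled cell type was checked on its markers: Nes was at 675 CPM (UMIs of the gene per 1000000 UMIs) in young and 638 in aged cells, Sox2 at 262 and 288, and Egfr at 144 and 166, while Gfap, found in quiescent stem cells and astrocytes, had 26 and 21 UMIs in all. Gfap did not stand for its list, since 13 of 20 astrocyte or quiescent stem cell markers were at 10 CPM or more in each library. That list was at 1990 and 2312 CPM in sum. The oligodendrocyte precursor list was also present, at 2317 and 2292 CPM in sum with 6 of 11 markers at 10 CPM or more, and Olig2 was at 538 and 470 CPM. The neuroblast list was at 502 and 509 CPM in sum, but only 2 and 4 of its 15 markers were at 10 CPM or more. Its marker Dcx was at 1.15 and 2.18 CPM. The microglial list was at 21.5 and 16.5 CPM (7 and 5 of 10 markers at 0), and the endothelial, pericyte, fibroblast and erythroid lists were between 0.0333 and 1.88 CPM. Cells of both libraries were sorted into 12 clusters with the members left out of the genes that drove the clustering. Cluster 3 was G1/S phase-like (16 of 20 listed markers raised), clusters 6 and 11 G2/M-like (24 of 24 each), cluster 10 astrocyte or quiescent stem cell-like (12 of 20) and cluster 12 integrated stress response-like (17 of 17). Cluster 1 raised both G1/S markers (19 of 20) and mid S phase markers (16 of 18). It stayed unnamed because its 10 leading genes held no G1/S marker but 5 mid S markers. Cluster 4, led by Stmn4, Fbxo32 and Mxd4, raised 4 of 15 p53 response and 3 of 10 cycle exit markers. It stayed unnamed because its leading genes held no p53 marker but 2 of cycle exit. Cluster 7 was set apart by depth, with a median of 2427 and 2546 UMIs per cell against 16808.5 to 35682.5 in the others. Its median mitochondrial share was 2.12% and 2.10%, against 7.57% to 8.85% in the others. Results across clusters are also given without it.

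Across cell states both subunits of FACT, a histone chaperone that also works at replication forks, were highest in cluster 1 and lowest in cluster 10 in both libraries once cluster 7 was left out. Their promoters are shown because they shared these ends. The windows run from 250 bases before to 50 after a RefSeq start site on GRCm38.p6, printed 5′ to 3′ on the gene's strand. They lie at chr2:85037201-85037500 on the plus strand for Ssrp1, the second of its 2 windows in the table, and at chr14:52197190-52197489 on the minus strand for Supt16. Capitals mark a match to TTTCCCGC, TTTGGCGC, TTTCGCGC or TTTGCCGC on either strand, the letters of the motif bound by E2F factors, which act at the G1/S transition.
Ssrp1: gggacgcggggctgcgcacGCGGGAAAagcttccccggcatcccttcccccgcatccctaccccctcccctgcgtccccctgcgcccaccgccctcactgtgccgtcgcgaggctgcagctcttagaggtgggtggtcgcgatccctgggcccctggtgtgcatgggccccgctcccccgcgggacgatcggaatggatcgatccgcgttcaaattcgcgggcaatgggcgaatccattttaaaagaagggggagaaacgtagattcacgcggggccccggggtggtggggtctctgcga
Supt16: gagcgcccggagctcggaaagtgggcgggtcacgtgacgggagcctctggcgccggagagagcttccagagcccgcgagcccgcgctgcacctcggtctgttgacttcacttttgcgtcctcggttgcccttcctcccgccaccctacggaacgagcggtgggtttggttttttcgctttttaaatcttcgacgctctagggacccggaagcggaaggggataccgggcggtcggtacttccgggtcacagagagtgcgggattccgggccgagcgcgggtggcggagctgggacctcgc
The Ssrp1 window held 1 match, the reverse complement of TTTCCCGC, and the Supt16 window and the other Ssrp1 window held none. Such a match was found in 744 of 32851 windows (2.26%) or, by gene, in 704 of 27025 genes (2.61%), and in 4 of the 45 members that have a window (Med6, Med9, Med14 and Ssrp1). A match is a string of letters and no evidence of binding.

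Ssrp1 (ENSMUSG00000027067, chr2:85037234-85047109, plus strand, GRCm38), the HMG-box subunit of FACT, stood at 334 CPM in the young and 324 CPM in the aged cells of cluster 1, where the S phase histone genes lead. In cluster 8, which raised 20 of 24 G2/M and 11 of 18 mid S markers, it was at 329.9 and 323 CPM. It was at 163 and 169 CPM in cluster 4 and at 154 and 153 CPM in cluster 10. In cluster 9, with 14 of 18 mid S markers raised, it was at 322 and 278 CPM. Clusters 1 and 8 thus held about the same high level in both libraries, cluster 9 was lower in the aged one, and clusters 4 and 10 held the low level. Supt16 (ENSMUSG00000035726, chr14:52160414-52197416, minus strand), the large subunit of FACT, was at 349 and 366 CPM in cluster 1 and at 345 and 359 in cluster 8. It was at 189 and 191 CPM in cluster 4 and at 154 and 145 in cluster 10. When the highest and lowest clusters were picked in one library and read in the other, without cluster 7, Supt16 was 2.53-fold higher in cluster 1 than in cluster 10 in the aged library (interval 2.29 to 2.80) and 2.27-fold in the young (2.07 to 2.49). Ssrp1 was 2.12-fold (1.92 to 2.34) and 2.17-fold (1.97 to 2.39) higher there. These ratios compare clusters that the same cells defined, so they are a description and no test.

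Without cluster 7, the highest and the lowest cluster were shared by both FACT subunits and by both libraries. The order of the clusters between these ends was alike but not the same. Pearson's r between Ssrp1 and Supt16 over the 12 clusters, on log2(CPM + 1), was 0.78 in young and 0.82 in aged cells, and 0.89 and 0.95 over the 11 clusters without cluster 7. In the shallow cluster 7 the pair parted: Supt16 was at 382 and 355 CPM, and Ssrp1 at 238 and 210. Between the libraries the cluster profile of Supt16 had r = 0.99 and that of Ssrp1 r = 0.97, against a median of 0.77 over all 49 members compared and 0.77 over all 8331 genes compared. The clusters of the 2 libraries come from 1 joint clustering, so these r values describe likeness only. The summed mid S phase markers were at 5228 and 5337 CPM in cluster 1, against 437 and 409 in cluster 4 and 405 and 386 in cluster 10. Cluster 12 had as little, 423 and 334 CPM. Ssrp1 was at 183 and 198 CPM there, against 296 and 268 in the G2/M-like cluster 11. Supt16 was at 254 and 228 CPM in cluster 12, close to its 252 and 246 in cluster 11. The part of cycle phase in the FACT levels was not tested. Per cell, cluster 1 held 8.56 and 8.80 Ssrp1 UMIs and cluster 10 held 3.35 and 3.52.

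**Figure D1:**
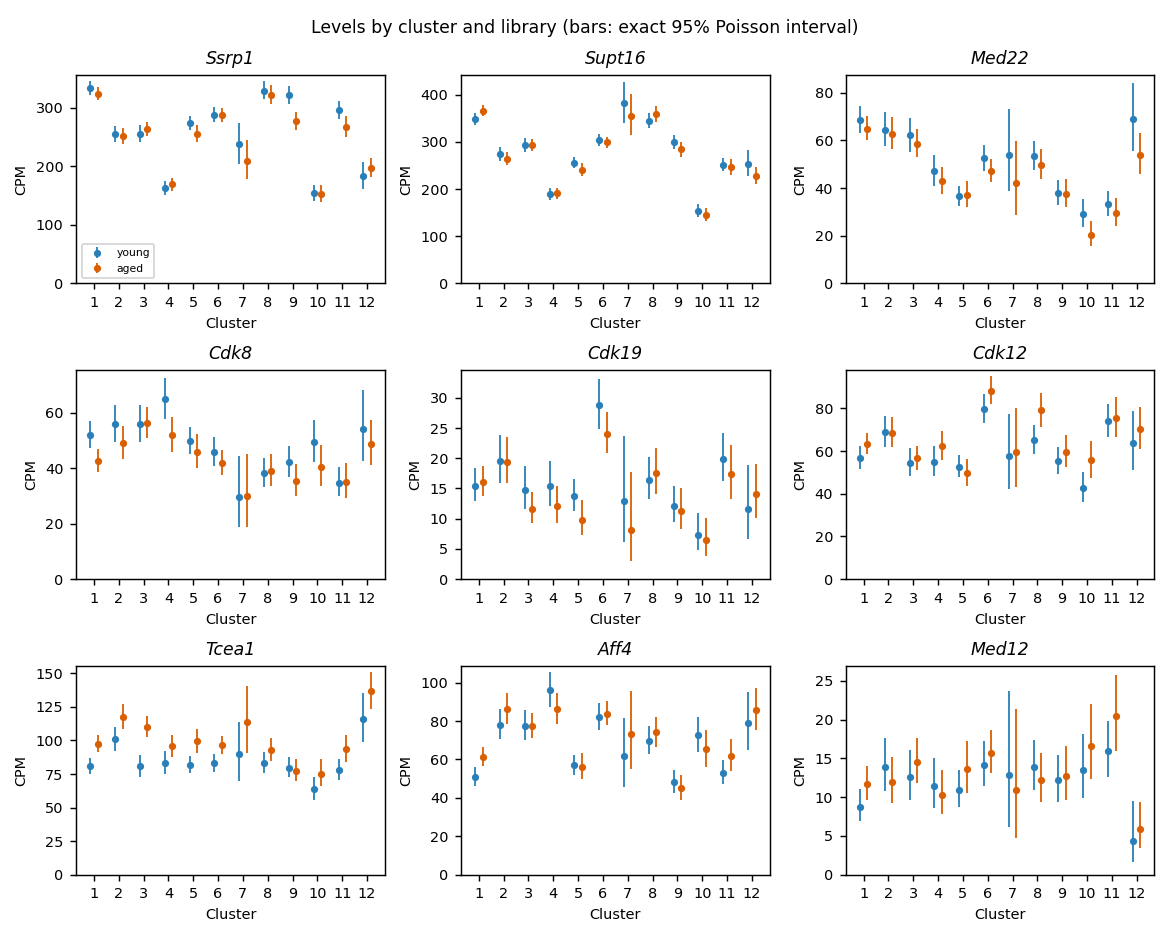
Level of single members (CPM, axis from 0) in each of 12 clusters, with young and aged libraries as separate points and exact 95% Poisson intervals as bars. Ssrp1 and Supt16 were lowest in cluster 10 in both libraries, at 145 to 154 CPM.

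The kinase module showed its largest differences in the kinase Cdk19 (ENSMUSG00000038481, chr10:40339564-40483818, plus strand), the paralogue of Cdk8. Cdk19 was at 28.8 CPM in the young and 24.1 CPM in the aged cells of the G2/M-like cluster 6. In cluster 10, with its astrocyte or quiescent stem cell markers, it was at 7.37 CPM (4.77 to 10.9, from 25 UMIs) and 6.45 CPM (3.88 to 10.1, from 19 UMIs). Cluster 6 was highest and cluster 10 lowest in both libraries, and the ratio between them was 3.91 (2.57 to 6.19) in young and 3.74 (2.33 to 6.34) in aged cells. Cdk8 (ENSMUSG00000029635, chr5:146231230-146302874, plus strand), the founding kinase of the module, did not follow this order. It was at 46.0 and 42.0 CPM in cluster 6, at 49.5 and 40.4 in cluster 10 and at 34.9 and 35.2 in cluster 11, its lowest cluster in both libraries once cluster 7 was left out. Its highest level was 64.9 CPM in cluster 4 of the young library and 56.4 in cluster 3 of the aged. Over the 12 clusters r between the 2 kinases was -0.05 in young and 0.18 in aged cells.

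The UMIs of the 2 paralogues stood in a different proportion from cluster to cluster. In cluster 6 there were 1.60 Cdk8 UMIs per Cdk19 UMI in the young (1.33 to 1.92) and 1.74 in the aged library (1.46 to 2.09). In cluster 10 there were 6.72 (4.40 to 10.7) and 6.26 (3.84 to 10.8). The other G2/M-like cluster, cluster 11, was close to cluster 6, at 1.75 and 2.03, and cluster 4 was at 4.20 and 4.32. The intervals of clusters 6 and 10 did not overlap in either library, but these clusters were picked as the ends of Cdk19 in these same cells. The gap between them is thus a description and no test. UMIs from the 3′ end depend on how well each transcript is captured, so these numbers compare clusters and are no ratio of molecules, and a processed pseudogene, Gm15739, is annotated within Cdk8 on the same strand.

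**Figure D2:**
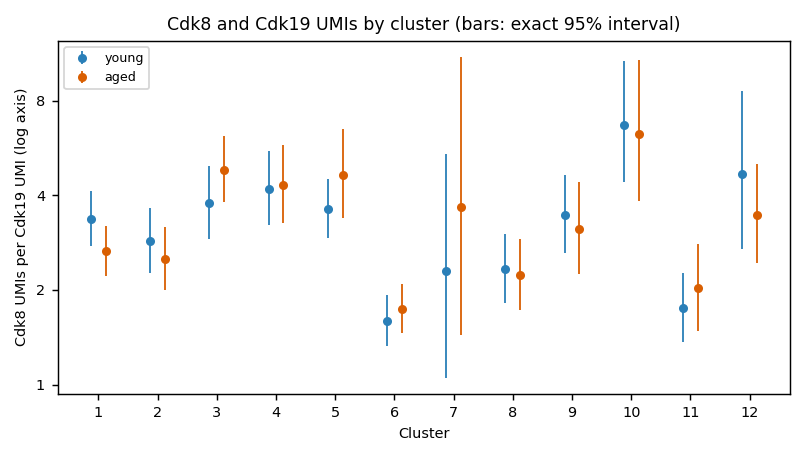
Cdk8 UMIs per Cdk19 UMI (log axis) in each of 12 clusters, young and aged libraries side by side, with exact 95% intervals for counting error. The G2/M-like clusters 6 and 11 are at 1.60 to 2.03 and cluster 10 is at 6.26 and 6.72.

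Of the rest of the kinase module, Med12, which activates the kinase, was low throughout and lowest in the stress response-like cluster 12, at 4.35 CPM in the young (1.60 to 9.47, from 6 UMIs) and 5.84 CPM in the aged library (3.40 to 9.34, from 17 UMIs). It was highest in cluster 11, at 15.9 and 20.4 CPM. The ratio between clusters 11 and 12 was 3.66 (1.61 to 10.3) in young and 3.50 (2.04 to 6.34) in aged cells, so its size is poorly fixed at this depth. Med13, which links the module to core Mediator, was flatter. It ran from 44.3 CPM (cluster 5) to 58.8 CPM (cluster 2) in the young library. In the aged it ran from 47.4 CPM (cluster 7), or 49.9 CPM (cluster 5) without cluster 7, to 71.0 CPM (cluster 6). Ccnc, the cyclin partner of both kinases, was between 23.7 and 38.6 CPM over the young clusters and between 18.6 and 36.6 over the aged. It was lowest in cluster 9 in both. The high ends were from 30 and 27 UMIs in the shallow cluster 7 (26.0 to 55.1 and 24.1 to 53.3 CPM). Without cluster 7 it was highest in cluster 2 in the young library (37.2 CPM) and in cluster 5 in the aged (35.7 CPM).

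In core Mediator the members with the widest spans came from the head, the middle, the backbone and the junction of head and tail. Med22, a head subunit, was at 68.5 and 64.9 CPM in cluster 1 and at 68.9 and 53.9 CPM in cluster 12, but at 29.2 and 20.4 CPM in cluster 10. Read in the library not used to choose the clusters, it was 2.65-fold higher in cluster 12 than in cluster 10 in the aged (1.95 to 3.62) and 2.35-fold higher in cluster 1 than in cluster 10 in the young library (1.90 to 2.94). Med4, a middle subunit, was at 65.5 and 58.8 CPM in cluster 6 and at 26.8 and 25.5 CPM in cluster 10. Both subunits were thus lowest in cluster 10 in both libraries. Med30, at the junction of head and tail, was at 113 and 109.9 CPM in cluster 6 and at 111 and 103 in cluster 2. It was at 55.0 and 55.4 CPM in cluster 4 and 60.9 and 52.2 in cluster 12. Med14 was at 45.4 and 46.4 CPM in cluster 8, at 20.8 and 29.8 in cluster 4 and at 30.1 and 21.7 in cluster 10, so which cluster was lowest differed between the libraries. Med1, the subunit that binds nuclear receptors, was highest in cluster 11, at 76.3 and 85.5 CPM, and lowest in cluster 7, at 43.7 and 43.4 CPM. Those low values came from 34 and 32 UMIs. Without cluster 7 its lowest level was 51.3 CPM in the young (cluster 3) and 53.6 CPM in the aged library (cluster 10).

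Med10, a middle subunit, ran the other way. It was at 313 and 255 CPM in cluster 10 and at 296 and 225 in cluster 9, against 193 and 160.4 in cluster 6 and 191 and 174 in cluster 3. With the low cluster picked in the other library, cluster 10 was 1.62-fold above cluster 6 in the young (1.5 to 1.76) and 1.47-fold above cluster 3 in the aged library (1.34 to 1.61). It was the single Mediator subunit compared that was highest in cluster 10 in both libraries, while 9.4% of all genes compared were highest there. Med18 and Med26 also had wide spans in the rule that chose the genes named here, but with levels of 2.38 to 12.9 CPM and 2.71 to 11.6 CPM their highest clusters differed between the libraries. For Med26 the intervals of the ratios read in the other library included 1 in both directions of reading, and for Med18 in 1 of the 2.

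Among the elongation factors, FACT aside, Tcea1, Aff4, Cdk12 and Cdk9 were among those with the same highest or lowest cluster in both libraries. Tcea1 (ENSMUSG00000033813, chr1:4857814-4897909, plus strand), the TFIIS protein that lets a backtracked polymerase restart, was at 116 and 137 CPM in the stress response-like cluster 12. It was at 63.9 and 75.4 CPM in cluster 10. The ratio was 1.81 (1.47 to 2.24) in young and 1.82 (1.54 to 2.15) in aged cells, and these were its highest and lowest clusters in both. Aff4, the scaffold of the super elongation complex that carries P-TEFb to paused polymerase, was at 96.1 and 86.3 CPM in cluster 4 and at 48.2 and 45.0 in cluster 9, a ratio of 1.99 (1.70 to 2.33) and 1.92 (1.62 to 2.28). In the aged library clusters 2 and 12 were as high, at 86.3 and 85.8 CPM. In cluster 4 Aff4 was thus high where FACT was low. Aff1, the other scaffold, was between 7.00 and 15.9 CPM over the young clusters and between 9.02 and 16.8 over the aged. Ell and Ell2, which speed up the polymerase within that complex, were at 2.19 to 8.54 CPM in all clusters and could not be ordered at this depth.

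The kinases Cdk9 and Cdk12 had opposite ends in cluster 6. Cdk12 was highest there, at 79.9 and 88.4 CPM, against 52.8 and 49.7 in cluster 5 and 42.7 and 55.7 in cluster 10. Cdk9 was at 40.6 and 42.4 CPM in cluster 6, its lowest level in both libraries though close to the 45.0 and 42.6 of cluster 8, against 59.8 and 61.0 in cluster 5 and 62.2 and 53.6 in cluster 10. Over the 12 clusters r between these kinases was -0.82 in young and -0.81 in aged cells. This pair was chosen after the values were seen, and r is a description over clusters that share libraries. Cdk13, the paralogue of Cdk12, was nearly flat, at 37.3 to 51.2 CPM in the young and 41.7 to 55.6 in the aged clusters. Without cluster 7 these ranges were 40.6 to 51.2 and 41.7 to 53.8 CPM.

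The cyclins of P-TEFb, the pausing factors and the PAF1 complex had these levels. Ccnt1 was at 33.6 to 45.7 CPM in the young and 31.4 to 47.2 in the aged library outside cluster 7, where it was at 23.1 CPM (13.7 to 36.6) and 16.3 CPM (8.41 to 28.4). Ccnt2 was likewise lowest in cluster 7 in the aged library, at 14.9 CPM, and was between 21.7 and 38.8 in the young. Without cluster 7 its lowest aged level was 24.8 CPM, in cluster 9. Supt5, the large subunit of DSIF, was at 42.8 to 63.6 CPM in the young and 46.9 to 68.7 in the aged clusters. Nelfe, the RNA-binding subunit of NELF, was at 74.3 and 75.1 CPM in cluster 1 and 76.8 and 70.5 in cluster 9, against 42.0 and 45.5 in cluster 4 and 48.3 and 40.7 in cluster 10. Its lowest level was in cluster 4 in the young library and in cluster 10 in the aged. Nelfcd was lowest in cluster 12, at 22.5 (15.3 to 31.9) and 30.6 CPM (24.5 to 37.6). In the aged library cluster 4 was as low, at 30.6 CPM (26.0 to 35.7). Paf1 was between 28.3 and 46.0 CPM in the young and between 25.5 and 47.0 in the aged clusters. Without cluster 7 its lowest young level was 35.1 CPM, in cluster 10.

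**Figure D3:**
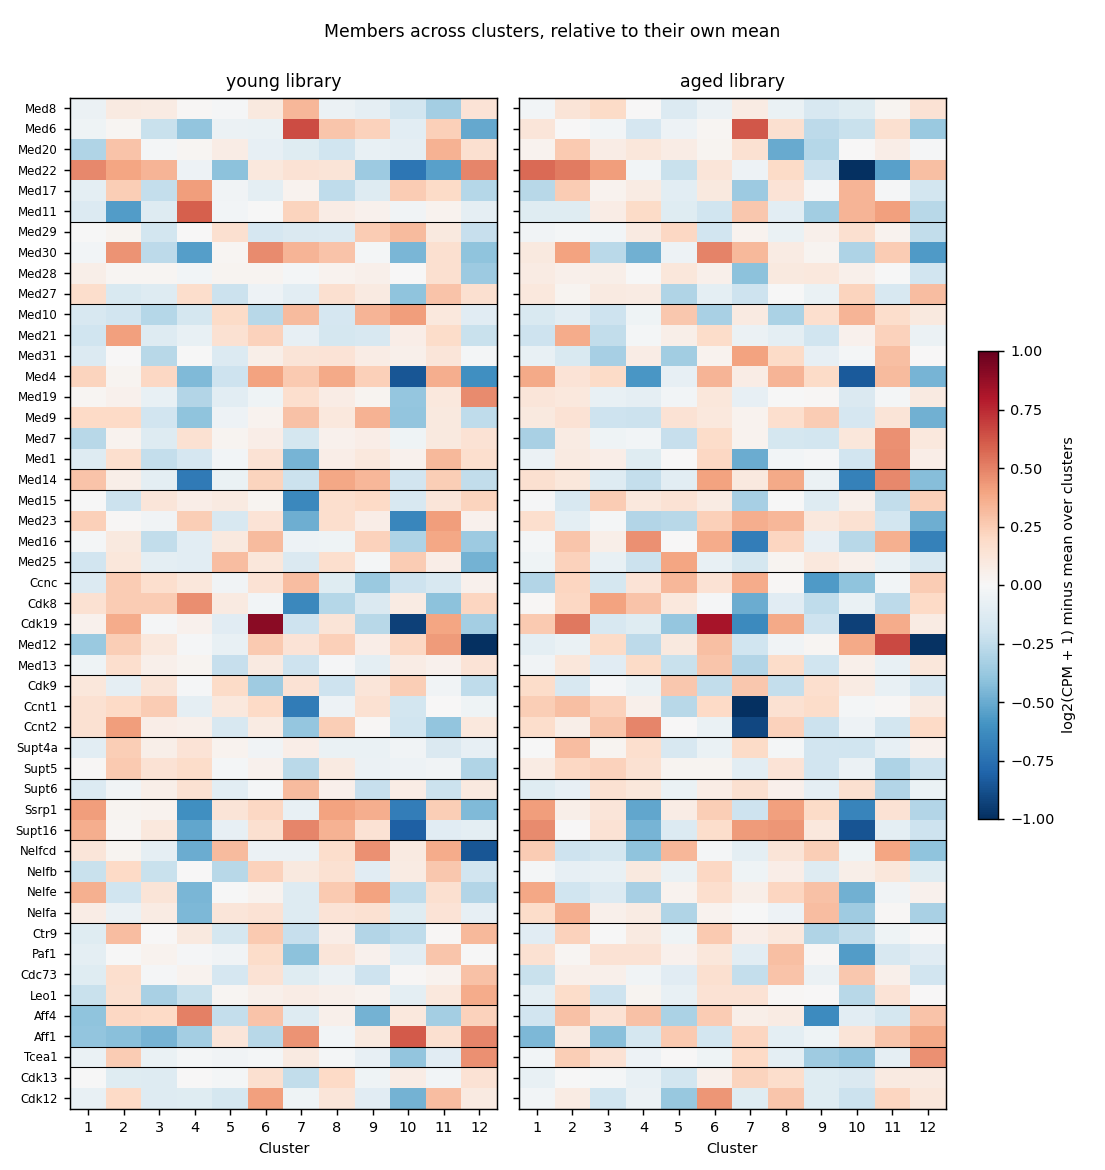
Level of each compared member in each cluster as log2(CPM + 1) minus its own mean over the 12 clusters, young library left and aged right. Ssrp1 and Supt16 are above their means in clusters 1 and 8 and below them in clusters 4 and 10 in both panels.

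Counted over the whole set, the members were not more variable between clusters than other genes. Counts use the 49 members, and the 8331 genes, that reached 10 CPM in 1 library or both. Med18, Med24, Med26, Ell and Ell2 did not reach it. At least 2-fold between the highest and the lowest cluster in both libraries, on CPM + 1, was reached by 8 of 49 members (background 30.3%), and by 8 without cluster 7 (26.2%). At least 1.5-fold was reached by 32 (72.2%). The highest cluster was the same in both libraries for 15 members (45%). With clusters picked in one library and read in the other, without cluster 7, 12 members were at least 1.5-fold apart both ways (40.1%), and the counting interval lay above 1 both ways for 28 (66.4%). The median of the smaller of the 2 spans was 1.61-fold for members and 1.71-fold for all genes.

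The cluster that held the lowest level most often was cluster 10. Without cluster 7, 8 of 49 members were lowest there in both libraries (background 7.17%): Cdk19, Med4, Med19, Med22, Paf1, Ssrp1, Supt16 and Tcea1. Another 6 members were lowest in cluster 12 in both (background 6.29%): Med6, Med12, Med16, Med28, Med29 and Nelfcd. Cdk19, Cdk12 and Med30 were highest in the G2/M-like cluster 6 in both (background 4.44%), and both FACT subunits were highest in cluster 1 (3.29%). The other highest levels shared by the libraries were in cluster 2 for Med21 and Supt4a (background 3.34%), cluster 4 for Aff4 (5.1%), cluster 5 for Med25 (0.876%), cluster 8 for Cdk13 (2.51%), cluster 9 for Med9 (2.62%), cluster 10 for Med10 (9.4%), cluster 11 for Med1 and Med12 (3.29%) and cluster 12 for Tcea1 (9.05%). The other shared lowest levels were in cluster 1 for Med7 (2.12%), cluster 5 for Med13 (1.27%), cluster 6 for Cdk9 (3.26%), cluster 9 for Aff4, Ccnc and Ctr9 (3.77%) and cluster 11 for Cdk8 (6.04%). Cluster 10 was also the low end of the elongation factors as a sum, at 1279 and 1247 CPM against 1370 to 1727 and 1437 to 1791 in the other clusters. The Mediator sum was flatter, at 1401 to 1607 CPM in the young and 1369 to 1583 in the aged clusters. FACT alone made up 308 and 298 CPM of the elongation sum in cluster 10, and 683 and 691 CPM in cluster 1.

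**Figure D4:**
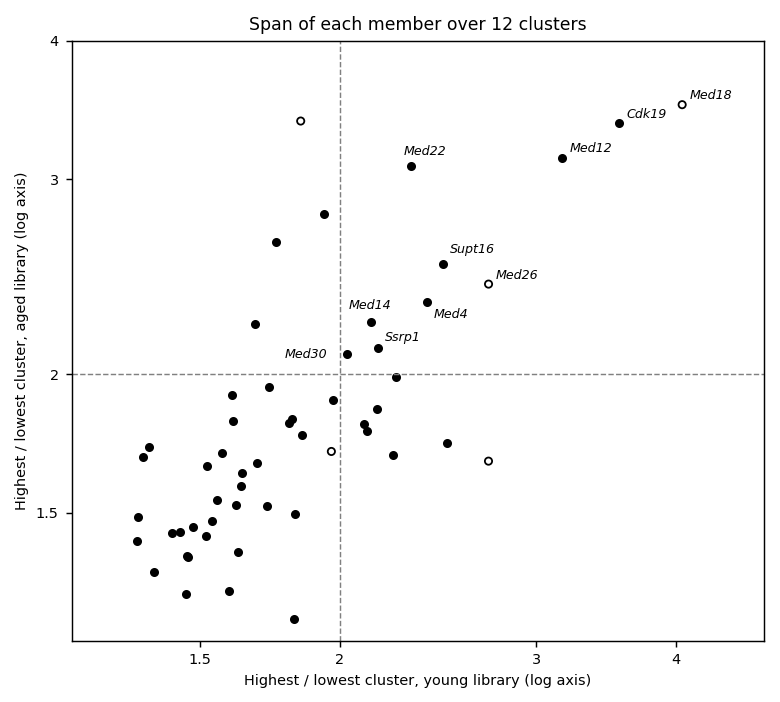
Ratio of the highest to the lowest cluster for each member on CPM + 1 (log axes), young library on the x axis and aged on the y axis; open points are members under 10 CPM in both libraries. Of the 49 filled points, 8 are at 2-fold or more on both axes.

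Over all kept cells the members differed little between the ages. None of the 49 was 1.5-fold higher in the aged library and none 1.5-fold lower, where 0.804% and 0.756% of all genes were, and none was 2-fold apart (0.144% higher and 0.216% lower). With no replicates this is a count of sizes and no test. At a 1.2-fold size only Aff1 was higher (background 6.22%) and none was lower (4.8%) on log2(CPM + 1), where Aff1 was at 0.29 and Tcea1 was just short, at 0.26. With at most 20% mitochondrial UMIs this turned round, with Aff1 at 0.20 and Tcea1 at 0.28, and with no cell filter they were at 0.20 and 0.29. Aff1 reached 10 CPM only in the aged library (9.59 CPM in young and 11.97 in aged cells). It was thus compared only through the library where it was higher. In all, 25 members were higher in the aged library (background 55.4%) and 24 lower (44.6%), with a median log2 ratio of 0.00 against 0.02 for all genes. The counting interval of the ratio left out 1 for 21 members (background 57.4%).

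By module, none of the 6 head subunits compared was higher in the aged library and all 4 tail subunits were (background 55.4%), with median log2 ratios of -0.04 and 0.09. Of these subunits only Med6, Med8 and Med25 had an interval of the ratio that left out 1. The other modules with more than 1 gene compared mostly had members on both sides: 3 of 8 in the middle, 2 of 5 in the kinase module, 1 of 4 at the junction, 2 of 3 in P-TEFb, 1 of 2 in DSIF and in FACT, 1 of 4 in NELF and 3 of 4 in the PAF1 complex were higher. Both Aff1 and Aff4 were higher, and both Cdk12 and Cdk13. Of all Mediator genes compared 11 of 28 were higher (median -0.03), and of the elongation factors 14 of 21 (median 0.05). Other normalisations moved all genes by -0.02 or -0.03 on the same scale. Within single clusters the head and tail were less clearly split. From 1 of 6 (cluster 2 among others) to 4 of 6 head subunits (cluster 3) were higher. For the tail this was 2 of 4 (clusters 9, 11 and 12) to 4 of 4 (clusters 1, 2 and 3).

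The largest difference downward was that of Med10 (ENSMUSG00000021598, chr13:69802395-69816104, plus strand), at 232 CPM in young and 194 CPM in aged cells, 1.19-fold lower (1.16 to 1.22). It was lower in aged cells in 11 of 12 clusters, which are parts of the same sum that ranked it, so this count is a description. Of the kinase module, Ccnc was at 30.6 and 27.9 CPM, 1.10-fold lower (1.03 to 1.17), Cdk8 at 48.7 and 44.6, 1.09-fold lower (1.03 to 1.15), and Cdk19 at 16.6 and 15.3, where the interval included 1. Med8, a head subunit, was at 72.1 and 66.7 CPM, 1.08-fold lower (1.03 to 1.13), and Nelfcd, a core subunit of NELF, at 45.0 and 41.9, 1.07-fold lower (1.02 to 1.13). The members of the kinase module lay on both sides of a ratio of 1, since Med13 was higher.

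The largest differences upward were those of Aff1 and Tcea1. Aff1 (ENSMUSG00000029313, chr5:103692374-103855322, plus strand) was at 9.59 CPM in young and 11.97 in aged cells, a ratio of 1.25 (1.12 to 1.40). Only its aged level met the 10 CPM minimum. Tcea1 was at 83.0 and 99.7 CPM, a ratio of 1.20 (1.16 to 1.25). Both were higher in aged cells in 11 of 12 clusters, Tcea1 most in cluster 3, where its ratio was 1.36 (1.21 to 1.54). Med13 was at 52.0 and 59.9 CPM, a ratio of 1.15 (1.10 to 1.21), and Med27, which joins the tail to the head, at 19.7 and 22.3, a ratio of 1.13 (1.04 to 1.22). Supt5 was at 54.6 and 60.5 CPM, a ratio of 1.11 (1.06 to 1.16), and Cdk12 at 61.0 and 66.9, a ratio of 1.10 (1.05 to 1.15). Med13, Med27, Supt5 and Cdk12 were higher in aged cells in 11, 11, 11 and 10 of 12 clusters. The clusters are parts of the same sums that ranked these genes, Aff1 and Tcea1. Such counts are thus a description and no test. Other annotated transcripts overlap Tcea1, Med12, Med6, Med20 and Med27 on the same strand, and Tcea1 has a processed pseudogene, so reads could be split or shared at these genes.

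FACT was close between the ages over all cells. Ssrp1 was at 274 and 264 CPM, a ratio of 0.96 (0.94 to 0.98), and Supt16 at 282 and 283, where the interval of the ratio (0.98 to 1.02) included 1. Cdk9 was at 52.7 and 50.3 CPM, Ccnt1 at 40.6 and 42.0 and Ccnt2 at 29.8 and 31.2, and the interval of each ratio included 1. The same held for Nelfe at 61.4 and 60.0 CPM, Paf1 at 38.9 and 39.9, Cdk13 at 44.9 and 46.9, Med1 at 61.9 and 63.6, Med12 at 12.2 and 13.2 and Med14 at 36.9 and 37.5. It also held for the rare Ell, at 6.61 and 6.48 CPM, and Ell2, at 3.99 and 3.97. Aff4 was at 67.0 and 71.8 CPM, a ratio of 1.07 (1.03 to 1.12). The cell mix behind these sums differed: cluster 5 held 12.1% of young and 7.28% of aged cells, and cluster 12 held 2.46% and 5.18%. With every cluster given the same weight, no member was 1.5-fold apart either.

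**Figure D5:**
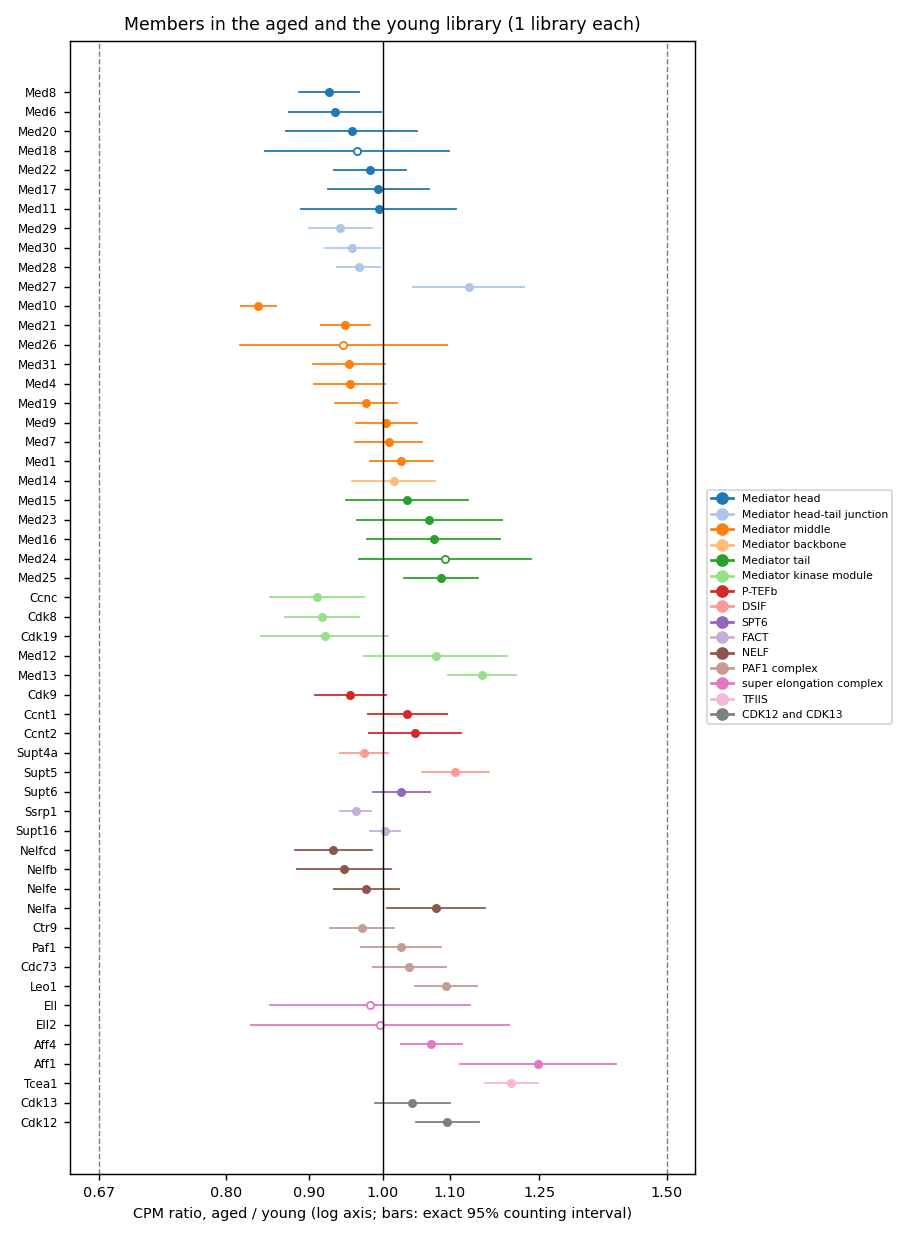
Ratio of aged to young CPM (log axis) for each of the 54 members over all kept cells, 1 library per age, coloured by module, with exact 95% counting intervals as bars and open points for members under 10 CPM. Ratios run from 0.84 for Med10 to 1.25 for Aff1, inside the 1.5-fold lines.

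Other genes of the pathway, which are no members, were compared in the same way. Of 18 related elongation genes compared, such as bromodomain factors and P-TEFb inhibitors, 14 were higher in the aged library (median log2 ratio 0.06), from Elof1 at 158 and 138 CPM to Med13l, the paralogue of Med13, at 43.2 and 52.7. Of 14 Integrator genes, subunits of the complex that cleaves nascent RNA at paused polymerase, 2 were higher (median -0.06), from Ints4 at 24.0 and 21.1 CPM to Vwa9 at 20.7 and 21.6. Of 41 genes of RNA polymerase II and the general factors, 20 were higher (median -0.00). Among all genes compared, 55.4% were higher (median 0.02). None of these compared genes was 1.5-fold apart between the libraries (background 0.804% higher and 0.756% lower). Below 10 CPM, and so not compared, were paralogues of Tcea1 and Aff1, named here after their values were seen. Tcea3 was at 0.730 CPM in young and 1.93 in aged cells, a ratio of 2.64 (1.85 to 3.84), from 43 and 116 UMIs. Aff2 was at 4.82 and 8.26 CPM, a ratio of 1.71 from 284 and 497 UMIs, and Tcea2 at 2.17 and 3.41, a ratio of 1.57 (1.25 to 1.97). For Aff3, at 1.83 and 2.06 CPM, the ratio was 1.12 and its interval (0.86 to 1.47) included 1.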

How the data were processed

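Each deposited matrix gives raw UMI counts for genes by barcode. Per the submitters' processing notes the authors used Cell Ranger 3.0.2 and the mm10 build; the annotation they counted against is not given in these sources. The members and all gene lists were chosen with earlier results of these data known. Barcodes (5151 young, 4731 aged) were kept with at least 1000 genes and at most 10% mitochondrial UMIs. Scrublet (scanpy 1.11.5, expected rate 0.06) called 0.415% and 0.394% of cells, which were removed, so doublets were largely not detected. The libraries share 4 barcode sequences. Clustering used 2000 variable genes without the members, 30 principal components, 20 neighbours and the Leiden method (leidenalg 0.10.2, resolution 1). A cluster was named under a rule set after the clusters were seen. At least 25% of a marker list, and at least 3 markers, had to be raised 1.5-fold, more than of any other list. That list also needed a marker among the 10 leading genes, and no fewer there than any other list. The median UMIs of the cluster had to reach 33.3% of the library median. UMIs were summed per library and cluster and divided by the total (CPM), and log2 ratios and spans use CPM + 1. Intervals are exact Poisson for sums and conditional binomial for ratios. Values in full were given for 22 members listed by name, the 6 highest and 6 lowest by age ratio and the 10 widest by span. Gene coordinates are those of GENCODE vM21 on GRCm38, and promoter sequences those of RefSeq. Alternatives changed the cell filter, CPM minimum, pseudocount, scaling (edgeR 4.0.16 for TMM) and resolution.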

Additional observations from a re-analysis of the deposited data

How the results depend on the processing

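With at least 50 CPM in place of 10, the members higher with age numbered 12 of 27, in place of 25 of 49, and 5 of 27 were at least 2-fold apart between clusters in both libraries (19.8% of all genes). With a Leiden resolution of 2, 22 of 49 were at least 2-fold apart, in place of 8 (54.8% of all genes). Under every alternative run, no member was 1.5-fold apart between the ages over all kept cells. Within single clusters of the main clustering, members that far apart numbered 1 in cluster 2, 2 in cluster 4, 3 in cluster 7 and 2 in cluster 10. The other clusters had none. The share of all genes at that size was not counted by cluster. The age ratio of Supt16, 0.00 on the log2 scale, took small negative values under other cell filters and scalings, the lowest -0.04 with clusters weighed the same, so no direction is given for it. The 1.2-fold size was passed by Tcea1 in place of Aff1 under both wider cell filters, and by both genes with a pseudocount of 0.1 or without the 5% of cells with the most UMIs. No paired analysis was possible because each age has 1 library. With 1 pooled culture per age, replicate error is unknown. The shallow cluster 7 held as few as 2 UMIs of a member.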
